A study of Homo sapiens with 6 samples.

Results

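The alpha-globin cluster genes and AHSP were followed across 6 RNA-seq libraries of K562 cells. The 6 genes, HBZ, HBM, HBA2, HBA1, HBQ1 and AHSP, were taken by symbol from 28069 genes in the deposited tables of estimated counts and from 26485 in those of whole-number counts, and all 6 were present in both. K562 is an established human chronic myeloid leukaemia line with erythroid features. The control group held the guide sgNeg2 and has the genotype label WT. The remaining groups held a guide against ZNF410, sgRNA1 or sgRNA2, and are labelled as its knockout (KO). Each of the 3 groups held 2 libraries, numbered replicate 1 and replicate 2. The labels speak of knockout cell lines, do not say whether a line was a clone or a pool, and do not say what a replicate number stands for. Nothing states that the 2 libraries of a group came from separate cultures, so p-values measure only the spread between these libraries.

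Haemoglobin is a tetramer of alpha-like and beta-like globin chains around haem. The alpha-like genes lie in the order in which they are used in development: HBZ encodes the embryonic zeta chain, and HBA2 and HBA1 encode the same alpha chain of fetal and adult life. HBM (mu) and HBQ1 (theta) are related genes of the cluster, for which no haemoglobin chain is established. Distal enhancers, the main one within the introns of the neighbouring gene NPRL3, drive the cluster in erythroid cells, where GATA1, TAL1 and KLF1 act. AHSP, alpha-haemoglobin stabilizing protein, is an erythroid chaperone that binds free alpha chains until a beta-like chain takes them up. ZNF410 is a zinc finger protein known for activating CHD4, whose product, a remodeller in the NuRD complex, takes part in silencing fetal globin. The series asked what ZNF410 does in gene regulation.

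On GRCh38.p14 all 6 genes lie on the plus strand of chromosome 16, per RefSeq. HBZ spans 152644 to 154503, HBM 165978 to 166764, HBA2 172876 to 173710, HBA1 176680 to 177522 and HBQ1 180459 to 181179, a stretch of 28.54 kb. Only 2.97 kb separates HBA2 from HBA1. AHSP spans 31527900 to 31528803, 31.35 Mb further along the chromosome. The sequence table credited to RefSeq (GRCh38.p14) held the start region of 1 of the 6 genes, HBM, the one member of the cluster that was near 0 in every library. Its 250 bases before the start, chr16:165728-165977 on the plus strand, are printed because this gene sits between strongly expressed ones. The capitals mark the only motif match found.

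HBM: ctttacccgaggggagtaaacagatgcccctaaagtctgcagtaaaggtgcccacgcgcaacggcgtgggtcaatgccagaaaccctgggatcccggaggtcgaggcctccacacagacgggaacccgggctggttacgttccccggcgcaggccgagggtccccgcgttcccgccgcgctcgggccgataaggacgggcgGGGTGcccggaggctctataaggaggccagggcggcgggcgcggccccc

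Letters of 6 known sites were searched on both strands of this window and of 35116 promoter windows of the same length. The KLF1-type site CACCC matched once, on the opposite strand, 49 bases before the start, and 54.7% of all windows held it. The exact letters of the other sites were not in the HBM window. Near matches, such as the GATAAG and TATAAG in it, were not searched for. The GATA site AGATAA was in 9.17% of all windows. The CCAAT box was in 32.0% of them. The TATA box letters TATAAA were in 10.7%, and the variant CATAAA used by some globin genes in 9.64%. The stretch CATCCCATA, part of the ZNF410 motif, was in 0.0997%. None of these matches is evidence of binding.

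Levels are given as TPM, transcript numbers scaled by length and library size so that genes can be compared within a library. Estimated counts summed to 17228254 to 18689560 per library, and whole-number counts, from a separate deposited table, to 8788816 to 9537470. Differences between groups were tested on the rounded estimated counts with edgeR's quasi-likelihood test, with calls made where the Benjamini-Hochberg adjusted p over 12764 genes was under 0.05. The test covered 5 of the 6 genes, since HBM was too low to enter. The libraries separated first by replicate number, so each comparison is also given from a fit with the replicate number as a block, which compares each knockout library with the control of its own number. The targeted gene ZNF410 was at 21.2 and 22.4 TPM in the control libraries and at 9.35 to 13.2 in the knockout libraries. CHD4 was at 126 and 159 TPM in the controls and at 62.9 to 76.3 in the knockout libraries. Of 8 erythroid markers 7 or all 8 were above 1 TPM in each library, and their summed level was 1011 to 1164 TPM in libraries numbered 1 and 1555 to 1686 in those numbered 2.

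HBZ was the alpha-like gene that varied most. It stood at 869 TPM in control replicate 1, 950 in sgRNA1 replicate 1 and 989 in sgRNA2 replicate 1. It stood at 3460 TPM in control replicate 2, 6644 in sgRNA1 replicate 2 and 6605 in sgRNA2 replicate 2. Every library numbered 2 was above every library numbered 1, so the control and knockout groups overlapped, while within a number both knockout libraries were above the control. The mean was 2165 TPM ± 1832 (SD, n = 2) in the controls and 3797 ± 3265 (SD, n = 4) in the knockout libraries.

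Read within a replicate number, HBZ was 1.09-fold of the control with sgRNA1 and 1.14-fold with sgRNA2 in the libraries numbered 1. In those numbered 2 it was 1.92-fold and 1.91-fold. Whether the knockout difference itself differed between the numbers was tested with an interaction term, in which the guides serve as replicates of the knockout. Each number held a single control library, so the error of this term comes from the spread between the guides and holds no measure of the spread between control libraries. The HBZ difference was larger in number 2 by 0.80 on the log2 scale (SE 0.0918, adjusted p = 0.00110), and HBZ was the only 1 of the 5 tested genes called there, against 0.11% of all genes tested. With whole-number counts the interaction was 0.68 (adjusted p = 0.0143). With limma on log2(TPM + 1) it was 0.78 (adjusted p = 0.00439), and without a filter on low values 0.78 (adjusted p = 0.135), which ended the call.

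**Figure D1:**
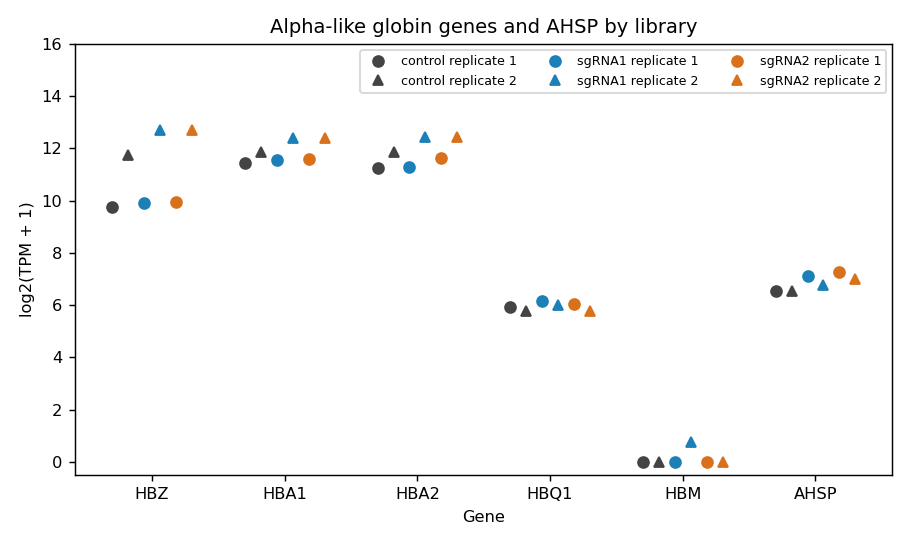
Level of each gene on a log2(TPM + 1) axis, in each of the 6 libraries, with the group given by colour and the replicate number by symbol. HBZ, HBA1 and HBA2 are higher in every library numbered 2 than in any numbered 1, AHSP is higher in all 4 knockout libraries than in both controls, and HBM lies at or near 0.

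Without the block, the knockout difference of HBZ was 0.82 on the log2 scale with an SE of 1.00 (edgeR, adjusted p = 1.00), less than the spread between replicates. None of the 5 tested genes was called in that fit, for knockout against wild type, sgRNA1 against control, sgRNA2 against control or sgRNA2 against sgRNA1. The share of all genes called was 0% in each of these 4 comparisons. At an unadjusted p under 0.05 they held 316, 135, 170 and 21 genes. DESeq2 without a block called 21, 5, 9 and 4 genes, none of them a cluster gene or AHSP.

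With the block, HBZ, HBA1, HBA2 and AHSP were called higher in the knockout, 4 of the 5 tested genes, against 3.03% of all genes tested. For sgRNA1 against control none of the 5 was called, against 1.39% of all genes, with 1521 genes at an unadjusted p under 0.05 and 115 genes called by DESeq2. For sgRNA2 against control HBA2 and AHSP were called, 2 of 5, against 2.26%. Between the guides none was called, against 0.0548% of all genes, with 581 genes at an unadjusted p under 0.05 and 5 called by DESeq2. Both guides were compared with the same 2 control libraries, so their results are not independent.

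In the blocked fit HBZ was higher in the knockout by 0.56 on the log2 scale (SE 0.125, adjusted p = 0.0315). It was 0.57 with sgRNA1 (SE 0.141, adjusted p = 0.0756) and 0.54 with sgRNA2 (SE 0.141, adjusted p = 0.0687), neither past the threshold. Leaving out control replicate 2 took the knockout estimate for HBZ to 0.16, and leaving out control replicate 1 took it to 0.96. Each of these fits holds 1 control library and so no spread between controls. The HBZ call was lost without sgRNA1 replicate 2 (0.49, adjusted p = 0.0677) and without sgRNA2 replicate 2 (0.52, adjusted p = 0.120). With the block, HBZ was 0.64 in whole-number counts (adjusted p = 0.00559), and by DESeq2 0.54 (adjusted p = 0.286). In whole-number counts HBZ was also called with sgRNA1 and with sgRNA2, against 109 and 170 of 12282 genes.

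The adult genes HBA1 and HBA2 had nearly the same levels as each other. HBA1 stood at 2781 TPM in control replicate 1, 3010 in sgRNA1 replicate 1 and 3055 in sgRNA2 replicate 1, and at 3708, 5440 and 5342 TPM in the same groups' replicate 2. HBA2 stood at 2440, 2520 and 3140 TPM in the libraries numbered 1, and at 3679, 5493 and 5486 TPM in those numbered 2. In TPM the control was the lowest library within each number for both genes, and the control and knockout groups overlapped across numbers. In the whole-number table, scaled to CPM, sgRNA1 replicate 1 was below control replicate 1 for HBA1 (10.7 against 12.7) and HBA2 (59.4 against 62.7). The ratio of HBA1 to HBA2 was 0.973 to 1.19 over the 6 libraries, with control 1.14 and 1.01, sgRNA1 1.19 and 0.990, and sgRNA2 0.973 and 0.974 for replicates 1 and 2.

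HBA1 and HBA2 are near-identical copies, so their separate values depend on how shared reads were divided. Of the 100-base windows of the longest coding transcript of HBA1 (GENCODE 29), 79.7% also occurred in HBA2, and 79.9% of those of HBA2 occurred in HBA1. For HBZ 39.3% of the windows occurred in a transcript of the pseudogene HBZP1 or in a non-coding transcript annotated to HBM. The coding transcripts of HBM, HBQ1 and AHSP shared no window with another gene. The whole-number table held only 0.00901 of the estimated count for HBA1, 0.0529 for HBA2 and 0.232 for HBZ, against a median of 0.546 over 10192 genes. For HBQ1 and AHSP the ratios were 0.533 and 0.514, near that median. In the whole-number table the HBA1 to HBA2 ratio was 0.124 to 0.254. Reads with several alignments, which that table counts to no gene, were 6.54% to 7.47% of its total.

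The summed TPM (HBA1+HBA2) was 5221, 5530 and 6195 in control, sgRNA1 and sgRNA2 replicate 1. It was 7387, 10933 and 10829 in replicate 2. Within a number the summed TPM was above the control in all 4 knockout libraries, by 0.08 and 0.25 on the log2 scale in number 1 and by 0.57 and 0.55 in number 2, sgRNA1 first. In whole-number CPM it was above in 3 of the 4, with sgRNA1 replicate 1 at 70.1 against 75.4 in control replicate 1. Tested as 1 gene on the summed estimated counts, which do not depend on how reads were split between the copies, the sum differed without a block by 0.42 (SE 0.306, adjusted p = 1.00). With the block it was 0.37 higher in the knockout (SE 0.0770, adjusted p = 0.0211), 0.36 with sgRNA1 (SE 0.0868, adjusted p = 0.0692) and 0.38 with sgRNA2 (SE 0.0866, adjusted p = 0.0395). The knockout call on the sum held in 8 of 13 blocked alternatives. It was lost by DESeq2 (0.37, adjusted p = 0.150), by limma on log2(TPM + 1) (0.36, adjusted p = 0.0752) and in whole-number counts (0.55, adjusted p = 0.105), and also without control replicate 2 or sgRNA2 replicate 2.

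Taken singly in the blocked fit, HBA1 was 0.34 higher in the knockout (SE 0.0777, adjusted p = 0.0343) and HBA2 0.40 higher (SE 0.0889, adjusted p = 0.0283). HBA2 was called with sgRNA2 alone (0.45, adjusted p = 0.0274). Leaving out control replicate 2 reduced HBA1 to 0.12, HBA2 to 0.21 and the sum to 0.16. Without control replicate 1, HBA1 was 0.56 and HBA2 0.60, and the sum 0.58. Both of these fits hold 1 control library and so no spread between controls. Without sgRNA2 replicate 2 the adjusted p was 0.113 for HBA1, 0.104 for HBA2 and 0.0846 for the sum. Without sgRNA1 replicate 2 it was 0.0677 for both genes and 0.0492 for the sum.

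By DESeq2 with the block the adjusted p was 0.203 for HBA1 and 0.206 for HBA2, and by limma on log2(TPM + 1) 0.0822 and 0.103. In whole-number counts HBA1 was 0.62 higher (adjusted p = 0.334) and HBA2 0.54 higher (adjusted p = 0.113), neither called. The knockout difference in number 2 exceeded that in number 1 by 0.44 for HBA1 (SE 0.0890, adjusted p = 0.0906) and by 0.39 for HBA2 (SE 0.132, adjusted p = 0.369), neither called. Other settings gave calls here. In whole-number counts HBA2 was called (0.98, adjusted p = 0.0133) and HBA1 was not (1.24, adjusted p = 0.372). HBA1 was called by DESeq2 (0.44, adjusted p = 0.00324) and with upper-quartile scaling (0.47, adjusted p = 0.0480). Leaving out any 1 of the 4 knockout libraries also called HBA1, at adjusted p = 0.0133, 0.00366, 0.0211 and 0.000263 for sgRNA1 replicates 1 and 2 and sgRNA2 replicates 1 and 2. HBA2 was called without sgRNA2 replicate 1 (0.55, adjusted p = 0.000685) and without sgRNA2 replicate 2 (0.43, adjusted p = 0.0394). Such a fit keeps 1 residual degree of freedom, from the guides of the other number, so these calls carry little weight.

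**Figure D2:**
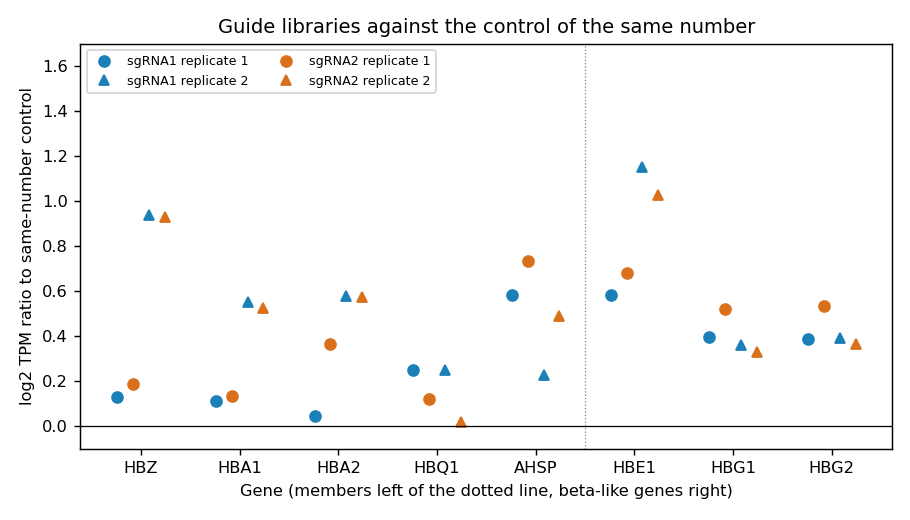
Log2 ratio of TPM in each knockout library to the control of the same replicate number. The genes are HBZ, HBA1, HBA2, HBQ1 and AHSP, and the beta-like genes HBE1, HBG1 and HBG2. HBZ lies at 0.13 and 0.19 in number 1 and at 0.94 and 0.93 in number 2, whereas AHSP lies at 0.58 and 0.74 in number 1 and at 0.23 and 0.49 in number 2.

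HBQ1, the theta gene at the end of the cluster, was low and nearly level. It stood at 59.3 and 53.2 TPM in control replicates 1 and 2, 70.4 and 63.2 in sgRNA1, and 64.5 and 53.9 in sgRNA2. In TPM replicate 1 was the higher library within each group, the opposite order to HBZ, HBA1 and HBA2. In whole-number CPM this did not hold for sgRNA1, at 16.9 and 17.7, and in the controls HBA1 and HBA2 were higher in replicate 1 as well. The knockout libraries overlapped the controls, and the difference was 0.17 both without the block (SE 0.175, adjusted p = 1.00) and in the blocked fit (SE 0.115, adjusted p = 0.522). In whole-number counts with the block HBQ1 was 0.03 (adjusted p = 0.967). HBM had an estimated count of 2 in sgRNA1 replicate 2, equal to 0.71 TPM, and of 0 in the other 5 libraries. The whole-number table held 1, 0, 0, 3, 0 and 1 reads for HBM in control 1 and 2, sgRNA1 1 and 2, and sgRNA2 1 and 2. In the 5 libraries at 0, the limit that a count of 0 allows (3 counts) was 0.161 to 0.174 CPM of the estimated counts, and no difference was detectable at this depth.

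Of the 5 tested genes AHSP had the control libraries closest to each other, at 91.7 and 91.3 TPM. It stood at 137 and 107 TPM in sgRNA1 replicates 1 and 2 and at 153 and 128 in sgRNA2. All 4 knockout libraries were above both controls. How many of all genes separated the groups in this way was not counted, so no weight is given to it. The mean was 91.5 TPM ± 0.283 (SD, n = 2) in the controls and 131 ± 19.2 (SD, n = 4) in the knockout libraries. Against the control of the same number AHSP in TPM was higher on the log2 scale by 0.58 and 0.74 in number 1, sgRNA1 first, and by 0.23 and 0.49 in number 2.

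AHSP differed by 0.53 on the log2 scale without the block (SE 0.176, unadjusted p = 0.0208, edgeR adjusted p = 1.00). With the block it was 0.52 higher in the knockout (SE 0.103, adjusted p = 0.0161), 0.60 higher with sgRNA2 (SE 0.112, adjusted p = 0.0131) and 0.44 with sgRNA1 (SE 0.113, adjusted p = 0.0891). DESeq2 with the block gave an adjusted p of 0.00814 and limma on log2(TPM + 1) 0.0349, and whole-number counts 0.48 (adjusted p = 0.0544). The AHSP call was lost without sgRNA2 replicate 2 (0.51, adjusted p = 0.0689). Without control replicate 2 AHSP was 0.66 (adjusted p = 0.0130). Its knockout difference in number 2 was lower than in number 1 by 0.29 on the log2 scale (interaction -0.29, SE 0.186, adjusted p = 0.680), within the error.

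With group and number in the fit, 52.6% of all genes differed between number 2 and number 1, 3250 higher and 3463 lower, and all 5 tested genes were among them. In these estimated counts the number difference of HBZ, HBA1 and HBA2 was larger than their blocked knockout difference, and that of AHSP was smaller. In whole-number counts it was smaller for HBA1 (0.29 against 0.62) and HBA2 (0.49 against 0.54) as well. HBZ rose by 2.44 on the log2 scale in number 2 (SE 0.120, adjusted p = 9.06e-09), HBA1 by 0.61 (SE 0.0714, adjusted p = 1.47e-05) and HBA2 by 0.76 (SE 0.0793, adjusted p = 5.74e-06). AHSP fell by 0.30 (SE 0.0908, adjusted p = 0.0144) and HBQ1 fell by 0.27 (SE 0.0983, adjusted p = 0.0355). In TPM, HBZ was 3.98-fold higher in number 2 among the controls, and for sgRNA1 6.99-fold and sgRNA2 6.68-fold. The same ratio for AHSP was 0.996, 0.778 and 0.840, with the control libraries level and those of both guides lower in number 2.

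The AHSP and HBQ1 calls between numbers were lost in 7 and 6 of 15 alternatives. Both calls were lost in whole-number counts (adjusted p = 0.0583 for AHSP and 0.162 for HBQ1) and by DESeq2 (0.0974 and 0.181). They were also lost when any 1 of the 4 knockout libraries was left out, at adjusted p = 0.148, 0.129, 0.0989 and 0.0996 for AHSP and 0.102, 0.0991, 0.179 and 0.188 for HBQ1, in the order sgRNA1 replicates 1 and 2 and sgRNA2 replicates 1 and 2. HBA1 was not called in whole-number counts (0.29, adjusted p = 0.347). Markers of other blood cells moved with the number as well. The summed level of 7 megakaryocyte markers was 10.4 to 14.8 TPM in number 1 and 2.43 to 2.96 in number 2, with ITGA2B the only one above 1 TPM and PF4 at 0 throughout. This fall was that of ITGA2B (fell by 3.04 on the log2 scale, adjusted p = 1.11e-09). The other markers of that list with enough counts to test, ITGB3 (0.95, adjusted p = 0.0816) and GP1BA (0.26, adjusted p = 0.560), were above 0 and not called. Of 7 myeloid markers, summing to 12.2 to 16.8 and 3.16 to 5.20 TPM, only LYZ was above 1 TPM, and MPO, ELANE, S100A8 and S100A9 were at 0. Of 6 lymphoid markers, summing to 34.2 to 54.0 and 7.43 to 10.6 TPM, only CD3D was above 1 TPM. The part of these marker changes in the globin differences was not tested, and in bulk RNA fewer cells of a type and less RNA per cell cannot be told apart.

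The share of each gene in the summed alpha-like TPM described the make-up of alpha-like RNA, and no protein chain was measured. HBZ made up 14.1%, 14.5% and 13.6% of it in control, sgRNA1 and sgRNA2 replicate 1, and 31.7%, 37.7% and 37.8% in replicate 2. HBA1 and HBA2 together made up 84.9%, 84.4% and 85.5% in replicate 1 and 67.8%, 62.0% and 61.9% in replicate 2. HBQ1 was at 0.308% to 1.08%, and the largest HBM share came from the 2 estimated counts above. Wilson 95% intervals on the estimated counts were at most 0.900 percentage points wide for HBZ and 0.927 for the sum of HBA1 and HBA2; they cover counting error only. These shares depended on the table used. In whole-number counts HBZ made up 48.8%, 56.2% and 49.7% in replicate 1 and 79.7%, 80.5% and 78.8% in replicate 2, and HBA1 and HBA2 together 41.5%, 35.3% and 41.9%, and 16.7%, 17.1% and 19.4%. HBZ was then the largest in every library, and its share in number 2 was not above the control with sgRNA2. That table counts few reads of HBA1 and HBA2, as given above, and is not scaled by length.

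Within number 1 the HBZ share differed from the control by 0.370 percentage points with sgRNA1 and by -0.492 with sgRNA2. Within number 2 it was 5.91 and 6.02 points above the control. The step from number 1 to number 2 was 17.6 points for the control, 23.2 for sgRNA1 and 24.1 for sgRNA2. Over all libraries the HBZ share was 25.9% in the knockout and 22.9% in the wild type, a mean difference of 2.95 points. A two-sided exact permutation test over the 15 placements of the labels gave p = 0.533 (smallest possible p 0.0667), and one over the 9 placements within numbers gave p = 0.222 (smallest possible 0.111), so this design could not reach the threshold by either. Left out singly, control replicate 2, sgRNA1 replicate 1 and sgRNA2 replicate 1 gave differences of 11.8, 6.75 and 7.04 points. Control replicate 1, sgRNA1 replicate 2 and sgRNA2 replicate 2 gave -5.85, -0.969 and -1.004 points, the other direction.

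**Figure D3:**
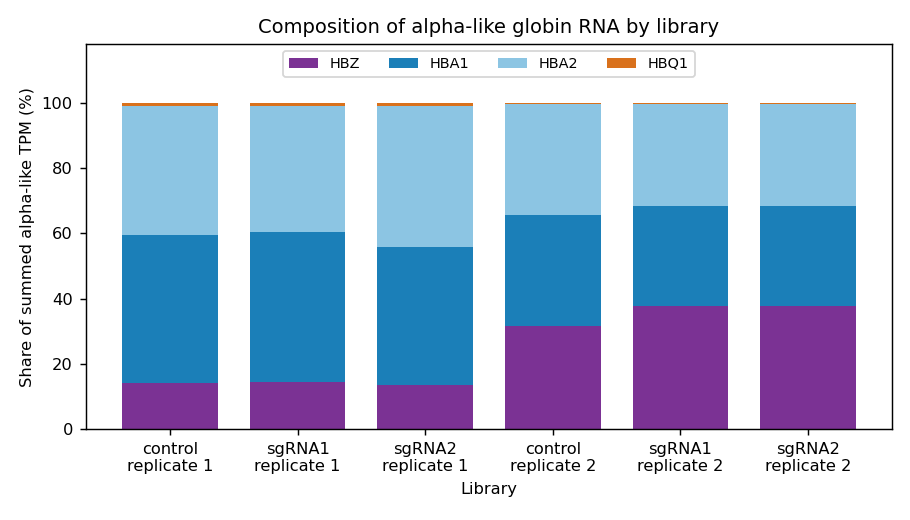
Share of HBZ, HBA1, HBA2 and HBQ1 in the summed TPM of the alpha-like genes, in percent, as a stacked bar for each library. The HBZ share is 13.6% to 14.5% in the libraries numbered 1 and 31.7% to 37.8% in those numbered 2.

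HBA1 alone took 45.2%, 46.0% and 42.1% in replicate 1 of control, sgRNA1 and sgRNA2, and 34.0%, 30.8% and 30.5% in replicate 2. HBA2 took 39.7%, 38.5% and 43.3%, and 33.8%, 31.1% and 31.4%. In the libraries numbered 1 the ranking by TPM was HBA1, HBA2, HBZ, except that HBA2 came first in sgRNA2. In number 2 the control kept HBA1 first, and HBZ came first in both knockout libraries. HBZ was then the gene ranked 11 of 28069 by TPM in sgRNA1 and 10 in sgRNA2, against 47 in control replicate 2 and 133 to 143 in number 1. AHSP ranked between 958 and 1701 and HBQ1 between 2019 and 2755.

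All alpha-like transcripts together were 6149, 6551 and 7249 TPM in control, sgRNA1 and sgRNA2 replicate 1, and 10900, 17641 and 17487 in replicate 2. That was 0.615% to 0.725% of all TPM in number 1 and 1.09% to 1.76% in number 2. Set against the beta-like partners (HBE1, HBG1, HBG2, HBD and HBB), which summed to 17232 to 24945 TPM in number 1 and 40660 to 54107 in number 2, alpha-like transcripts were the smaller pool in every library. The alpha-like to beta-like ratio was 0.357 and 0.268 for replicates 1 and 2 of the control, 0.289 and 0.326 for those of sgRNA1, and 0.291 and 0.330 for those of sgRNA2. The control had the highest ratio in number 1 and the lowest in number 2, so the knockout libraries lay on different sides of the control in the 2 numbers. This crossing was not tested on its own.

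**Figure D4:**
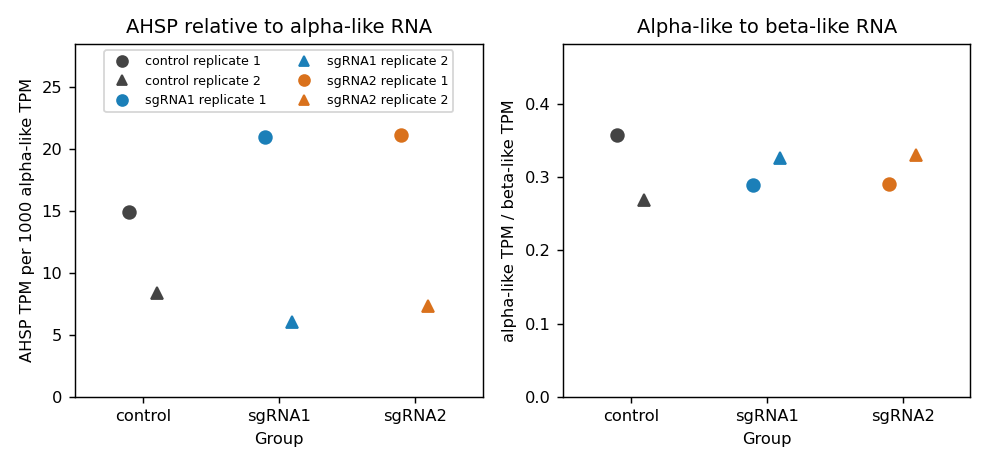
Ratio of summed alpha-like to summed beta-like TPM, and AHSP TPM per 1000 TPM of alpha-like transcripts, in each of the 6 libraries. The alpha-like to beta-like ratio falls from 0.357 to 0.268 between the control libraries and goes from 0.289 to 0.326 with sgRNA1, while AHSP per 1000 alpha-like TPM is lower in number 2 in every group.

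AHSP was also set against its client. AHSP per 1000 TPM of alpha-like transcripts was 14.9 and 8.37 for replicates 1 and 2 of the control, 21.0 and 6.06 for those of sgRNA1, and 21.1 and 7.33 for those of sgRNA2. Per 1000 TPM of HBA1 and HBA2 alone it was 17.6 and 12.4, 24.8 and 9.78, and 24.6 and 11.8. On both scales the knockout libraries were above the control in number 1 and below it in number 2.

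All 5 beta-like partners were called higher in the knockout with the block, against 1.97% of all genes called higher. In whole-number counts 4 were called, and HBD was not (0.89, adjusted p = 0.152); HBD had an estimated count of 4 in control replicate 1. HBE1, the embryonic beta-like gene, was 0.88 higher (SE 0.0957, adjusted p = 0.000265), and the fetal genes HBG1 and HBG2 were 0.41 (adjusted p = 0.000372) and 0.43 higher (adjusted p = 0.000213). The adult genes HBD and HBB, at most 44.3 and 72.2 TPM, were 1.09 (adjusted p = 0.0341) and 1.60 higher (adjusted p = 0.00245). HBE1 had log2 ratios to the control of 0.58 and 0.68 in number 1 and 1.15 and 1.03 in number 2, and its interaction was not called (0.51, SE 0.114, adjusted p = 0.127). HBG1 lay at 0.40 and 0.52 in number 1 and at 0.36 and 0.33 in number 2.

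Of 15 listed neighbours of the cluster on chromosome 16, 10 were tested and none was called in the knockout with the block, where 1.97% of all genes were called higher and 1.07% lower. Their median difference was 0.08 on the log2 scale, against 0.00 over all genes. NPRL3, the gene that holds the enhancers, was at -0.13 (SE 0.0645, adjusted p = 0.384), and LUC7L, on the far side of HBQ1, was at 0.02. Between numbers NPRL3 was at -0.04 (adjusted p = 0.574) and LUC7L rose by 0.68 (adjusted p = 1.31e-06). SNRNP25, MPG, FAM234A and AXIN1 were also called between numbers, which makes 5 of 10, near the 52.6% of all genes. Of 11 listed neighbours of AHSP 6 were tested, none was called in the knockout, and their median was 0.20, with 6 of 6 above 0 in the estimated counts and 4 of 6 in whole-number counts. ARMC5, ZNF668 and C16orf58 were called between numbers, 3 of 6 against 52.6% of all genes.

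Among 11 activators and chromatin factors of the cluster, TAL1 (0.25, adjusted p = 0.0291), a haematopoietic activator, and ZFPM1 (0.40, adjusted p = 0.0343), the GATA1 cofactor FOG1, were called higher in the knockout with the block and none lower, 2 of 11 against 1.97% of all genes. Neither was called in whole-number counts, where TAL1 was at 0.21 (adjusted p = 0.118) and ZFPM1 at 0.41 (adjusted p = 0.0569). The others named were GATA1 at 0.11 (adjusted p = 0.286), KLF1 at 0.15 (adjusted p = 0.244), NFE2 at -0.00 (adjusted p = 0.987) and ATRX, a remodeller whose loss lowers alpha-globin, at -0.09 (adjusted p = 0.667). In number 2 against number 1 TAL1 rose by 0.52, KLF1 by 0.21 and ATRX by 0.23, while GATA1 fell by 0.15 and NFE2 fell by 0.40, all called. LDB1 and TFCP2 were called as well. That was 4 of 11 higher and 3 of 11 lower, against 25.5% and 27.1% of all genes.

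Of 8 genes that deal with free alpha chains or with globin synthesis, USP15 (0.23, adjusted p = 0.0237), a deubiquitinase, and PRDX2 (0.21, adjusted p = 0.0417), a red cell peroxidase, were called higher in the knockout with the block. NFE2L2 (-0.24, adjusted p = 0.0166), the antioxidant response factor NRF2, was called lower. That was 2 of 8 higher and 1 of 8 lower, against 1.97% and 1.07% of all genes. None of the 3 was called in whole-number counts, where USP15 was at 0.20 (adjusted p = 0.0827), PRDX2 at 0.18 (adjusted p = 0.142) and NFE2L2 at -0.19 (adjusted p = 0.123). UBE2O, a ubiquitin ligase for free alpha chains, was at 0.07 (adjusted p = 0.589), and EIF2AK1, the haem-regulated kinase, at 0.03 (adjusted p = 0.842). The heat shock gene HSPA1A was the 1 gene of the list whose knockout difference was called to differ between numbers, lower in number 2 (interaction -1.07, adjusted p = 0.000835). It stood at 135 TPM in the single control library numbered 1 and at 509 in the one numbered 2, so this term too holds no spread between controls.

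The profiles most like the summed alpha-like TPM over the 6 libraries, among 9000 other genes with a mean of at least 5 TPM, were those of TMA7 (r = 0.996), AMHR2 (r = 0.996), NUDT14 (r = 0.995), RIPOR3 (r = 0.994) and ALAS2 (r = 0.993). ALAS2, the erythroid enzyme that starts haem synthesis, stood at 11.1, 11.5 and 16.9 TPM in control, sgRNA1 and sgRNA2 replicate 1 and at 32.5, 58.3 and 57.3 in replicate 2. The profiles most like AHSP were those of SALL2 (r = 0.979), RAB3A (r = 0.977), PLXNB2 (r = 0.975), SLC25A42 (r = 0.975) and LRRCC1 (r = 0.972). These correlations of log2(TPM + 1) describe 6 points that share their groups and numbers, and no gene was named in both lists.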

How the data were processed

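Each of the 6 libraries came with 2 tables. The first held, per the file headers, estimated counts, which need not be whole. It also held TPM and FPKM. The authors made these estimated counts and scaled TPM and FPKM by transcript length and library size, and FPKM served only as an alternative for the shares. The second held whole-number counts per gene, as deposited by the authors, and 61.6% to 62.6% of its total lay in rows that name no gene, which were left out. Per the submitters' processing notes, the build was hg38 and the tools were Trim Galore, HISAT2 2.2.1, SAMtools 1.9, HTSeq 0.6.1, RSEM 1.3.2 and DESeq2 1.36.0, with no role given. The strand setting is not given in the sources used here, so genes that overlap another are uncertain.

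Estimated counts were rounded and tested with edgeR 4.0.16 (TMM scaling, filterByExpr, quasi-likelihood F-test, R 4.3.3) in a fit of 3 group means, or of 4 against 2 libraries by genotype. Each SE is the log2 fold change over the root of its F statistic. DESeq2 1.42.0, limma 3.58.1 on log2(TPM + 1), whole-number counts, other scalings and filters, a replicate block and leaving out each library were alternatives. The scripts were tested on simulated counts. Shares are TPM divided by the sum over the 5 alpha-like genes, with Wilson intervals on the estimated counts, which cover counting error only.

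The design without a block was the main one. Deviations of same-numbered libraries from their group means correlated at r = 0.836, 0.783 and 0.774 over 10639 genes for the 3 pairs of groups, and the first principal component (70.7% of the variance) separated the numbers. The numbers were therefore taken to pair the libraries, from the data, since the labels do not say so. The genes and lists were chosen with earlier results of these data known. The text names all 6 genes, their sums, ZNF410 and CHD4, fixed members of 5 gene lists plus those called, and the 5 genes most like the alpha-like sum and AHSP. Gene positions came from RefSeq (GRCh38.p14) and shared 100-base windows from GENCODE 29.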

Additional observations from a re-analysis of the deposited data

Results flagged for a closer look

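The HBZ difference between knockout and wild type was larger in the libraries numbered 2 than in those numbered 1 by 0.80 on the log2 scale, a difference between groups tested with an interaction term (edgeR, SE 0.0918, adjusted p = 0.00110). The term rests on 1 control library per number, with which both guides were compared, so the guides are not separate support for it.

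HBM was at 0.71 TPM in sgRNA1 replicate 2 and at 0 in the other 3 knockout libraries, so that library stood apart from the rest of its group. The value rests on an estimated count of 2. With 3 of 4 values at 0, any value above 0 would have been singled out. The whole-number table held 3 reads in that library and 1 in sgRNA2 replicate 2.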

How the results depend on the processing

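Against the main fit, the knockout difference kept its direction in all 28 alternatives for HBZ (0.16 to 2.07), HBA1 (0.12 to 0.64), HBA2 (0.21 to 0.72), HBQ1 (0.02 to 0.31), AHSP (0.38 to 0.66) and the sum of HBA1 and HBA2, and passed the threshold only with the replicate block: in 10 of 13 blocked alternatives for AHSP, 8 for HBZ and the sum, and 7 for HBA1 and HBA2. For the knockout, the replicate block called 4 of the 5 tested genes in place of 0, also with no filter, DESeq2 size factors or upper-quartile scaling (4 each), and 1 each with whole-number counts (HBZ), DESeq2 (AHSP) and limma (AHSP). Of all genes the blocked knockout fit called 387 of 12764, and 522 of 18347 with no filter. It called 386 and 383 of 12764 with DESeq2 size factors and upper-quartile scaling. With whole-number counts it called 226 of 12282, by DESeq2 333 of 12269 and by limma 177 of 12249. For sgRNA2 the block called 2 (HBA2 and AHSP), also under both other scalings (2 each), and 4 with no filter. It called 1 with limma and 1 with whole-number counts, where the gene was HBZ and neither HBA2 nor AHSP was called. Of all genes it called 289 of 12764, 285 and 269 with DESeq2 size factors and upper-quartile scaling, and 731 of 18347 with no filter. With whole-number counts it called 170 of 12282 and with limma 99 of 12249. For sgRNA1 it called none in the plain block, 4 with no filter and 1 with whole-number counts (HBZ). Of all genes it called 178 of 12764, 518 of 18347 and 109 of 12282 in these fits. Leaving out 1 library changed the number of members called for each of these 3 comparisons. With a knockout library left out, the blocked knockout fit called 196 of 13123 to 305 of 13099 of all genes. A fit without a control library keeps 1 control, so its calls, also in the counts of 13 above, carry little weight. The sum of HBA1 and HBA2 was 0.37 with the block, with no filter and with DESeq2 size factors, and 0.38 with upper-quartile scaling; leaving out 1 library gave 0.16 to 0.58 with the block and 0.23 to 0.63 without it. No member was called between the guides in 16 alternatives.

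Without the block, leaving out 1 library moved HBZ from -1.11 to 2.10 with sgRNA1 and from -1.07 to 2.04 with sgRNA2, HBA1 from -0.051 to 0.76 and from -0.046 to 0.67, HBA2 with sgRNA1 from -0.22 to 0.87, and HBQ1 with sgRNA2 from -0.12 to 0.22. HBQ1 with sgRNA2 was -0.10 in whole-number counts, with and without the block. Between numbers 5 genes were called, 2 in whole-number counts, 3 by DESeq2 and 3 to 5 with 1 library left out. Of all genes, 6713 of 12764 were called between numbers, 5529 of 12282 in whole-number counts and 4974 of 12764 by DESeq2. With 1 library left out it was 4964 of 13111 to 6736 of 13147. For the difference between numbers in the knockout effect, 1 gene was called, 2 with upper-quartile scaling or DESeq2 (HBZ and HBA1) or whole-number counts (HBZ and HBA2), 0 with unfiltered limma and 2 to 3 with 1 library left out; HBQ1 was 0.014 with upper-quartile scaling, 0.16 in whole-number counts and -0.17 to 0.13 with 1 library left out. Leaving out a control library could not be fitted there. The HBZ share difference ran from -5.85 to 11.8 points with 1 library left out. The cause of these changes was not tested. The blocked fits with another filter or scaling, and limma for the comparisons of numbers, were added after seeing the data. The filter on low counts kept HBM out of the main fit, and HBA1 had only 83 to 251 whole-number counts per library.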
